A study of Mus musculus with 2 samples.

Results

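Semaphorins are guidance proteins of axons and migrating neurons, and plexins and neuropilins are their receptors. Members of these families were taken as the protein-coding genes of the GENCODE M21 annotation on GRCm38 (the assembly of mm10) whose symbol is Sema followed by a digit, starts with Plxn, or is Nrp1 or Nrp2. The rule found 31 genes of the 47643 in the count files: 20 semaphorins, 9 plexins and 2 neuropilins, and it used no measured value. The counts come from mRNA-seq of cortical progenitors of wild-type E14 mice that were electroporated with Phf6 siRNAs (siPhf6) or with non-targeting control siRNA (siCtl) and kept in culture for 5 days. Both libraries carry the labels WT and male, and Phf6, which encodes a chromatin-associated zinc-finger protein, was reduced by a pool of siRNAs and not deleted. A single library of counts for each treatment was analysed here, although replicate cultures are described, and whether a library holds one culture or a pool is not stated. Every difference below is therefore a difference between 2 libraries with no replicate check.

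Semaphorins of class 3 are secreted, and most of them bind a neuropilin, which holds the ligand while a plexin of the A class or Plxnd1 carries the signal into the cell. Semaphorins of the other classes studied here are anchored in the membrane and bind plexins directly. The part of a plexin inside the cell acts on small GTPases, and the usual outcome is the collapse or turning of a growth cone. In the developing cortex this system is known for steering radial migration, dendrite and axon polarity, callosal axons and the routes of interneurons.

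The siPhf6 library held 10561757 reads in genes and the siCtl library 12155311. Phf6 had 310 reads in siPhf6, against 1420 in siCtl, which is 25.2% of the siCtl level. Transcripts of postmitotic neurons were plentiful in both: Tubb3, a neuronal tubulin, stood at 102 and 103 RPKM in siPhf6 and siCtl (RPM, a gene's reads per 1000000 reads in genes, divided by the gene's merged exon length in kb), where Sox2, a transcription factor of radial glia, stood at 9.57 and 11.2, and Mki67, a marker of dividing cells, at 2.35 and 0.981. Such a contrast depends on the genes chosen. Of other radial glia markers, Vim stood at 39.1 and 32.2 RPKM in siPhf6 and siCtl and Fabp7 at 36.8 and 26.6, above the neuronal Rbfox3 at 18.8 and 17.7. The label "cortical progenitors" thus covers cultures that held neuronal RNA beside that of radial glia, in shares that these levels do not give. Marker lists differed between the libraries. Of the radial glia markers kept by the filter below, 4 of 5 were higher in siPhf6 and none lower, with summed levels of 483 and 350 RPM in siPhf6 and siCtl. Both kept markers of dividing cells were higher (54.6 and 24.4 RPM for the list), and so were 2 of 4 astrocyte markers (440 and 311 RPM) and 2 of 3 of the oligodendrocyte lineage (103 and 82.7 RPM). Most of the astrocyte sum came from Slc1a2, at 364 RPM in siPhf6 and 242 in siCtl. Gfap of the astrocyte list (log2 ratio -0.14) and Mbp of the oligodendrocyte list (-0.31) were below 0 and not called. The 5 markers of meningeal fibroblasts summed to 37.3 RPM in siPhf6 and 16.9 in siCtl, and Col1a1, a fibrillar collagen and the only one kept, was higher with 154 and 52 reads. The 3 markers of intermediate progenitors summed to 123 RPM in siPhf6 and 87.9 in siCtl, nearly all of it from Btg2. Btg2, the only one kept, was higher, with 1253 reads in siPhf6 and 1011 in siCtl. The 2 under the filter went in opposite directions, Eomes with 20 and 9 reads and Neurog2 with 22 and 48. None of the 8 microglial markers was kept (5.02 and 4.36 RPM), and neither of the 2 kept mural cell markers was called (56.2 and 60.4 RPM). Of 8 markers of postmitotic neurons, 1 was lower and none higher (2908 and 2868 RPM). Their part in the differences below was not tested, and in bulk RNA fewer cells of a type and less RNA per cell cannot be told apart.

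Genes under 150 reads in both libraries were set aside, and the others were kept. A kept gene was called higher or lower in siPhf6 where its log2 ratio of RPM (siPhf6 over siCtl, 1 read added to each count) passed 0.25 in size and the reads, split between the libraries, had a Benjamini-Hochberg false discovery rate (FDR) under 0.01 over all 10130 kept genes by the exact binomial test (two-sided). Such a test sets one library against the other and says nothing of how cultures vary. The intervals, at 95% and exact, hold counting error alone. Of the 31 members 27 were kept, and 5 were called lower (Nrp1, Sema3a, Sema3c, Sema3f and Sema7a) and 3 higher (Plxnc1, Sema4d and Sema5b). The 8 called members are 29.6% of the 27, against 25.7% of all kept genes, a share near that of all genes. By direction, 12.4% of all kept genes were lower and 13.3% were higher. The median log2 ratio was -0.18 over the kept members and 0.01 over all kept genes. Sema3f, Sema4a and Sema5b passed the filter in 1 library alone, the one in which each was higher. Of the 24 members that passed in both libraries, 4 were lower and 2 higher.

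The level of a gene relative to others was read per length, in RPKM. In both libraries the leading member was Sema7a, a semaphorin tethered to the membrane by a lipid anchor, at 63.6 in siPhf6 and 78.0 in siCtl. Plxna4, Plxnd1 and Plxna2 followed, in an order that differed between the libraries. Plxnd1 stood at 46.5 in siPhf6 and 41.3 in siCtl, and Plxna4 at 45.8 in siPhf6 and 51.8 in siCtl. At the other end, 4 members were under 1 RPKM in both libraries: Plxnb3, a receptor of Sema5a, with 1 read in siPhf6 and 2 in siCtl, Sema3g with 6 and 5 reads, Sema3b with 28 and 36, and Sema3d with 77 and 75. These are the 4 members that the filter removed, and at such depths a difference of the size seen in most other members could not be detected.

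**Figure D1:**
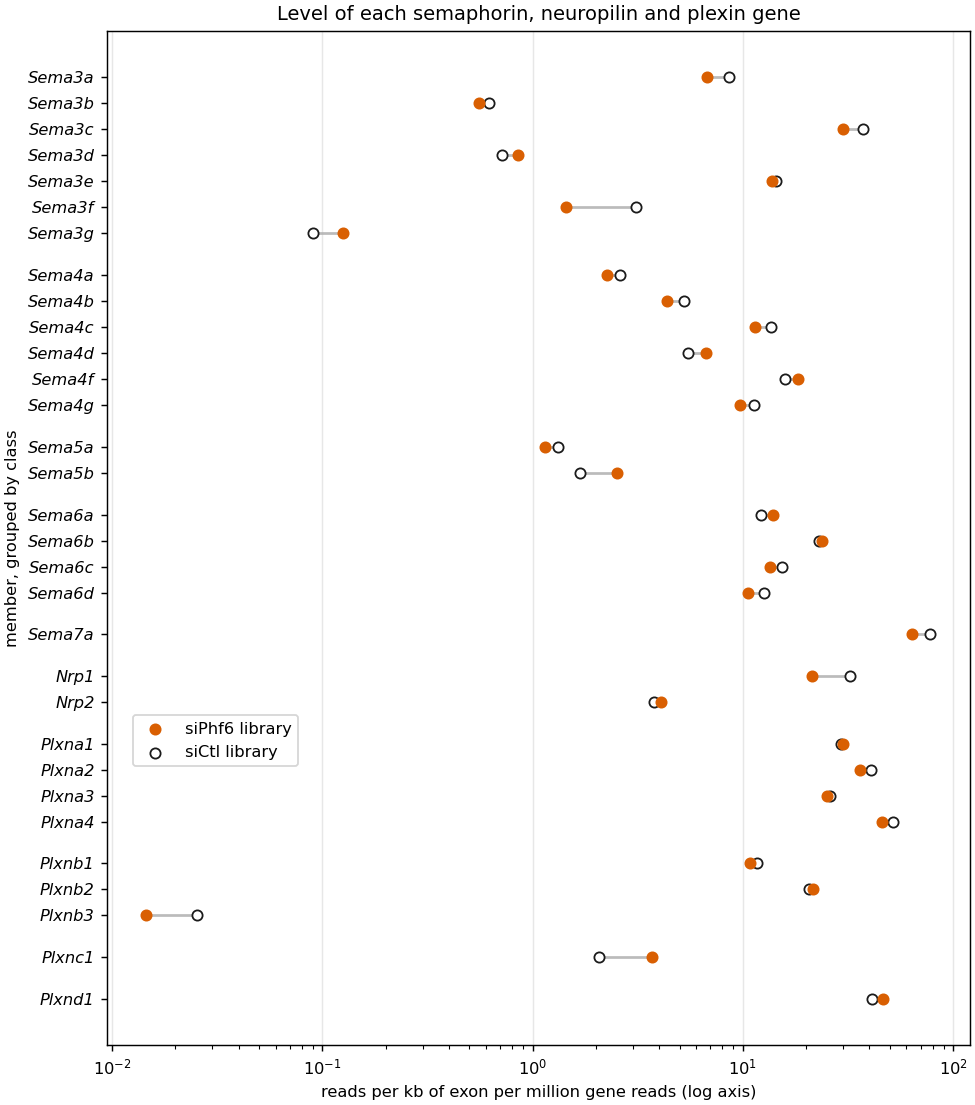
Level of each of the 31 genes in RPKM (horizontal axis, log scale), with filled points for the siPhf6 library and open points for the siCtl library, grouped by class. Sema7a is the highest in both libraries (63.6 and 78.0), and Plxnb3, Sema3g, Sema3b and Sema3d lie below 1.

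Of the 5 members called lower, 3 were secreted semaphorins (Sema3a, Sema3c and Sema3f), or 2 of the 4 among members that passed the filter in both libraries. Summed over the 7 genes of class 3, 4775 reads in siPhf6 stood against 6598 in siCtl, or 452 and 543 RPM (log2 ratio -0.26, interval -0.32 to -0.21). All 4 kept genes of the class had a ratio below 0, as had 4887 of the 10130 kept genes. Of the 4, 3 were called lower, against 12.4% of all kept genes. Sema3f is among the 3, and as it was kept through siCtl alone, where it was higher, it lends these counts no support. Sema3d and Sema3g, which the filter removed, had ratios above 0. The order of the 4 kept genes by level did not differ: Sema3c led with 47.1% of the class's reads in siPhf6 and 48.8% in siCtl.

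Sema3a is the prototype repellent of cortical and sensory axons, and it also orients dendrites of pyramidal neurons. The gene lies on chromosome 5 of GRCm38 from 13125414 to 13602565 on the plus strand. Its reads were 987 in siPhf6 and 1444 in siCtl, or 93.5 and 118.8 RPM. The siPhf6 level was 78.7% of the siCtl level (log2 ratio -0.35, -0.46 to -0.23; FDR = 4.74e-08 by the exact binomial test). Sema3c, which attracts cortical axons, lies on the same chromosome from 17574281 to 17730268. It had 2247 reads in siPhf6 and 3220 in siCtl, or 213 and 265 RPM, a level of 80.3% (-0.32, -0.39 to -0.24). The ratio of Sema3a to Sema3c within a library does not depend on how the libraries are scaled, and it was 0.226 per length in siPhf6 and 0.231 in siCtl. The log2 difference of these ratios was -0.03 (-0.17 to 0.11), so both genes were lower to a like extent.

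Sema3f repels axons and interneurons that carry Nrp2. It had the lowest ratio of the kept members, but it was kept through its siCtl count alone, with 79 reads in siPhf6 and 195 in siCtl, or 7.48 and 16.0 RPM. The siPhf6 level was 47.0% of the siCtl level (log2 ratio -1.09, -1.50 to -0.72). Sema3f occupies chromosome 9, minus strand, from 107681500 to 107710475, and its level was low, at 1.44 RPKM in siPhf6 and 3.09 in siCtl. Against Sema3c within each library it was also lower, by a log2 difference of -0.78 (-1.19 to -0.39). Sema3e, the class member that binds Plxnd1 without a neuropilin, had 1351 reads in siPhf6 and 1623 in siCtl and was not called (-0.06, -0.17 to 0.04). Its share of the class's reads was 28.3% in siPhf6 (27.0% to 29.6%) and 24.6% in siCtl (23.6% to 25.7%). Of the members under the filter, Sema3b had a ratio of -0.15 (-0.93 to 0.59), Sema3d 0.24 (-0.24 to 0.72) and Sema3g 0.43 (-1.51 to 2.52), and each interval covers 0.

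Membrane-bound semaphorins differed in both directions. Class 4, whose members signal mostly through plexins of the B class, summed to 322 RPM in siPhf6 and 330 in siCtl (log2 ratio -0.04, -0.10 to 0.03). This sum joins members that moved apart. Sema4d, the ligand of Plxnb1 and a protein of oligodendrocytes and immune cells, had 543 reads in siPhf6 and 511 in siCtl, or 51.4 and 42.0 RPM, and was called higher (0.29, 0.11 to 0.47; FDR = 0.00377 by the exact binomial test). The gene occupies chromosome 13, minus strand, from 51685529 to 51793747. The higher oligodendrocyte markers given above stand beside this call, and their part in it was not tested. Sema4c, a ligand of Plxnb2, had 556 reads in siPhf6 and 761 in siCtl (-0.25, -0.41 to -0.09), just inside the fold limit at a ratio of -0.249, and was not called. Relative to Sema4c, Sema4d was higher in siPhf6 by a log2 difference of 0.54 (0.30 to 0.78). Sema4b was past the fold limit with 261 and 361 reads in siPhf6 and siCtl (-0.26, -0.50 to -0.03), but its FDR was 0.0544 in the exact binomial test. Sema4g, another Plxnb2 ligand (-0.22, -0.34 to -0.09), Sema4a (-0.21, -0.55 to 0.13) and Sema4f (0.21, 0.08 to 0.33) stayed within the fold limit.

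In class 5, whose proteins carry thrombospondin repeats, 1 of the 2 genes was called. Sema5b, which repels axons through plexins of the A class in the mouse retina, had 189 reads in siPhf6 and 144 in siCtl, or 17.9 and 11.8 RPM, and was called higher (log2 ratio 0.59, 0.27 to 0.92), though it was kept through its siPhf6 count alone. It lies on chromosome 16 from 35541145 to 35664732 on the plus strand. Sema5a had 226 reads in siPhf6 and 301 in siCtl and was not called (-0.21, -0.47 to 0.04). Per length, Sema5b exceeded Sema5a 2.21-fold in siPhf6 and 1.26-fold in siCtl, a log2 difference of 0.80 (0.39 to 1.22).

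None of the 4 genes of class 6 was called. These transmembrane proteins bind Plxna2, Plxna4 or Plxna1 and can act as receptors themselves. Together they had 409 RPM in siPhf6 and 423 in siCtl (log2 ratio -0.05, -0.11 to 0.01). Sema6a had 1293 reads in siPhf6 and 1306 in siCtl (0.19, 0.08 to 0.30), and Sema6b 998 and 1113 (0.05, -0.08 to 0.17). Sema6c had 846 reads in siPhf6 and 1108 in siCtl (-0.19, -0.32 to -0.06). Sema6d, with 1185 and 1619 reads in siPhf6 and siCtl, was the closest to a call (-0.25, -0.36 to -0.14; FDR = 3.63e-05 by the exact binomial test), short of the fold limit at -0.247.

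Sema7a promotes axon growth and branching, through integrin beta 1 in its best known role, and also binds Plxnc1. Its reads were 2215 in siPhf6 and 3125 in siCtl, or 209.7 and 257 RPM. At 81.6% of the siCtl level it was called lower (log2 ratio -0.29, -0.37 to -0.21). The gene lies on chromosome 9 from 57940112 to 57962865 on the plus strand.

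**Figure D2:**
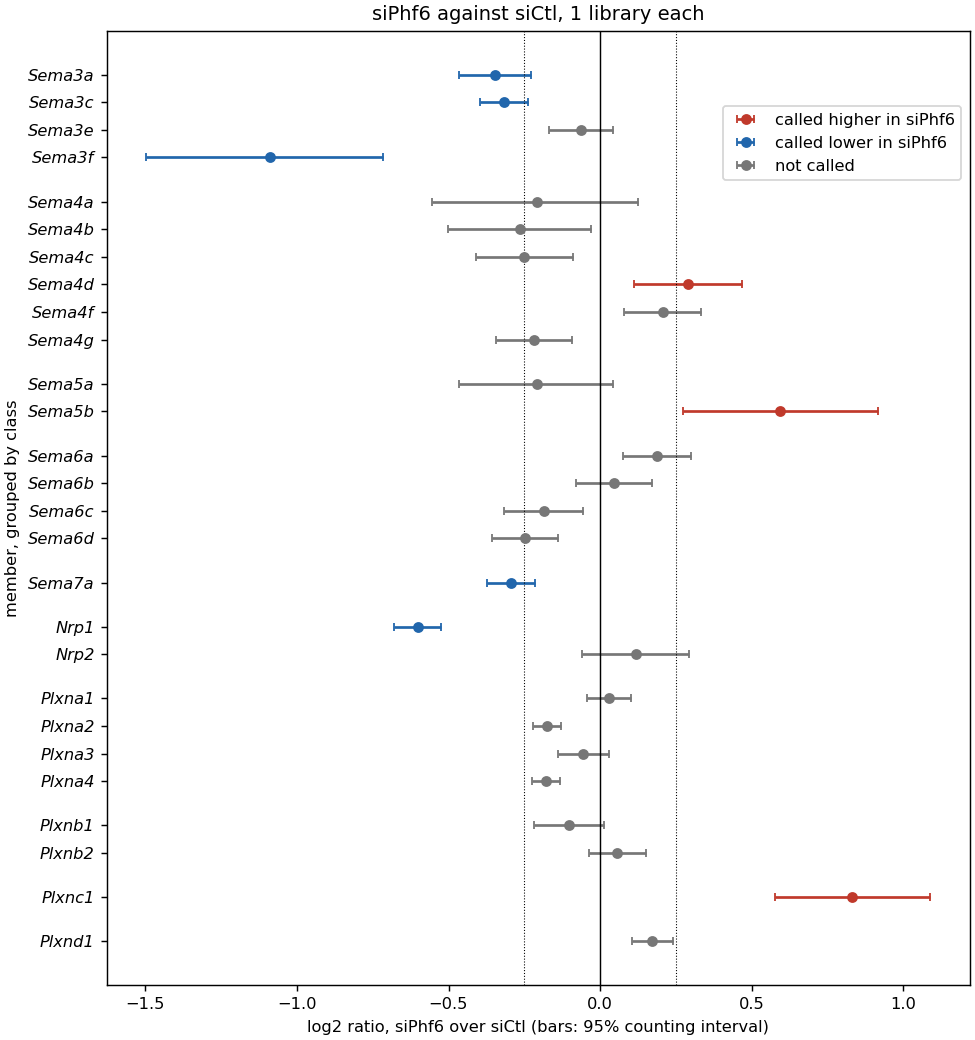
Log2 ratio of siPhf6 over siCtl (horizontal axis) for the 27 kept members, grouped by class, with 95% counting intervals as bars and dotted lines at the fold limit of 0.25. Members called lower (blue) run from -1.09 for Sema3f to -0.29 for Sema7a, and those called higher (red) from 0.29 for Sema4d to 0.83 for Plxnc1.

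The neuropilins diverged. Nrp1 is the binding receptor for Sema3a and also for VEGF-A, and it lies on chromosome 8 from 128358604 to 128503363 on the plus strand. It had 2200 reads in siPhf6 and 3844 in siCtl, or 208 and 316 RPM. The siPhf6 level was 65.9% of the siCtl level (log2 ratio -0.60, -0.68 to -0.53; FDR = 2.2e-54 by the exact binomial test). Among the kept members, only Sema3f had a lower ratio. Nrp2, the binding receptor for Sema3f and Sema3g, had 513 reads in siPhf6 and 544 in siCtl and was not called (0.12, -0.06 to 0.29). Per length Nrp1 exceeded Nrp2 5.19-fold in siPhf6 and 8.55-fold in siCtl, a log2 difference of -0.72 (-0.91 to -0.53). Nrp1 made up 81.1% of neuropilin reads in siPhf6 (79.6% to 82.5%) and 87.6% in siCtl (86.6% to 88.6%). Nrp1 is also made by endothelial cells, and the 8 endothelial markers, none of which was kept, summed to 16.6 RPM in siPhf6 and 13.8 in siCtl. In that list Egfl7 had the most reads, 92 in siPhf6 and 89 in siCtl, followed by Flt1 with 45 and 41, while Cdh5 had 6 and 4 and Cldn5 had 0 in both libraries. Markers of GABAergic interneurons and Cajal-Retzius cells were partly lower as well. Lhx6, an interneuron transcription factor, had 156 reads in siPhf6 and 314 in siCtl, and Reln, a secreted protein listed for Cajal-Retzius cells, 1625 and 3459. Of the 4 Cajal-Retzius markers Reln alone was kept, and it made up nearly all of their sums of 155 RPM in siPhf6 and 288 in siCtl. The other 3 had few reads: Trp73 2 and 5, Lhx5 2 and 10, and Calb2 10 and 23. The Reln difference therefore cannot be assigned to Cajal-Retzius cells from this list. Of the 7 GABAergic markers 5 were kept and 2 were called lower, with summed levels of 303 RPM in siPhf6 and 313 in siCtl. Gad1 (log2 ratio 0.10) and Gad2 (0.19), which had the most reads of that list, were above 0 and not called. The part of these cell types in the Nrp1 difference was not tested.

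Plexins held more reads than the semaphorins in both libraries, but not more per length. Summed RPKM was 220 for plexins and 235 for semaphorins in siPhf6, and 224 and 263 in siCtl. Of the 8 kept plexins 1 was called. The 9 plexin genes summed to 2376 RPM in siPhf6 and 2493 in siCtl (log2 ratio -0.07, -0.09 to -0.04). Plexins of the A class transduce signals of secreted semaphorins with a neuropilin and of classes 5 and 6 without one. Plxna4 and Plxna2 had the most reads of any member. Plxna4 had 6820 reads in siPhf6 and 8875 in siCtl, and Plxna2 had 6563 in siPhf6 and 8532 in siCtl. Their ratios were both -0.18 (-0.22 to -0.13 each), and the ratio of Plxna2 to Plxna4 was 0.790 per length in siPhf6 and 0.789 in siCtl. Counting error was small against these differences (FDR = 1.55e-12 for Plxna2 in the exact binomial test), but they stayed within the fold limit. Plxna1 (2863 reads in siPhf6 and 3227 in siCtl; 0.03, -0.04 to 0.10) and Plxna3 (2090 and 2500; -0.06, -0.14 to 0.03) were not called. Neither was called in the B class, where Plxnb1, the receptor of Sema4d, stood at -0.10 (-0.22 to 0.01) and Plxnb2 at 0.06 (-0.04 to 0.15). Plxnd1, the receptor of Sema3e, had 3587 reads in siPhf6 and 3662 in siCtl (0.17, 0.11 to 0.24), within the fold limit.

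Plxnc1, the plexin that binds Sema7a, was the exception. It had 325 reads in siPhf6 and 210 in siCtl, or 30.8 and 17.3 RPM, and was called higher at 178% of the siCtl level (log2 ratio 0.83, 0.58 to 1.09; FDR = 5.61e-10 by the exact binomial test). It occupies chromosome 10, minus strand, from 94790866 to 94944835. Of all plexin reads Plxnc1 made up 1.29% in siPhf6 (1.16% to 1.44%) and 0.693% in siCtl (0.603% to 0.793%).

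**Figure D3:**
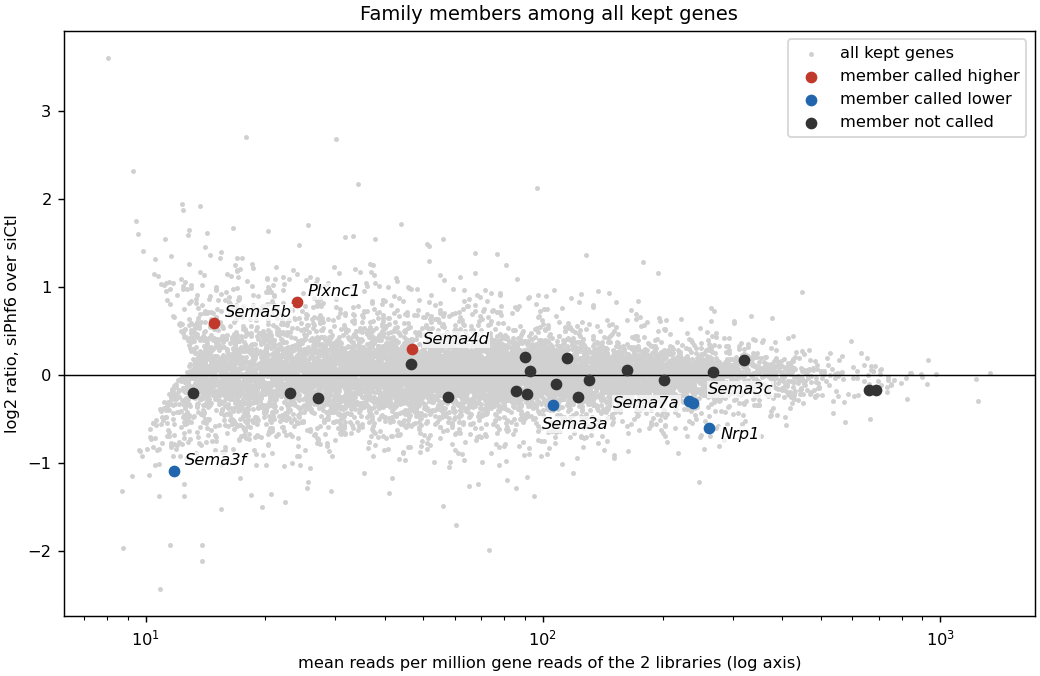
Mean RPM of the 2 libraries (horizontal axis, log scale) against the log2 ratio of siPhf6 over siCtl for all 10130 kept genes (grey) and the 27 kept members (larger points, red where called higher, blue where called lower, dark where not called). The members lie within the cloud of all genes, with Nrp1 at -0.60 and Sema3f at -1.09 the lowest members and Plxna2 and Plxna4 at the far right near -0.18.

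Pairing each ligand with its known receptors gave 35 pairs of 18 ligands and 11 receptors, from general knowledge of the family. In 30 pairs both genes were kept. Both were called lower in 2 pairs, Sema3a with Nrp1 and Sema3c with Nrp1. The pair of Sema7a and Plxnc1 was called in opposite directions, lower and higher. In 12 pairs the ligand alone was called, in none the receptor alone, and in 15 neither was. The pairs with the ligand alone called include those of Sema3f and Sema5b, which passed the filter in 1 library alone. Nrp1 and Plxnc1 were the only receptors called. The ligands listed for them were themselves called or, for Sema3b and Sema3d, not kept, so no kept pair could have the receptor alone called. The contrast of 12 with none is therefore no result about ligands and receptors. Since many pairs share a gene, the pair counts are not independent.

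Per length, Sema3a stood at 0.317 of Nrp1 in siPhf6 and 0.265 in siCtl, the receptor having the larger decrease (log2 difference 0.26, 0.12 to 0.40). For Sema3c and Nrp1 the values were 1.40 in siPhf6 and 1.15 in siCtl (0.29, 0.18 to 0.40). Against the A-class plexins, which were not called, Sema3a was lower, from -0.17 (-0.30 to -0.04) relative to Plxna4 to -0.38 (-0.52 to -0.24) relative to Plxna1. Sema7a exceeded Plxnc1 17.3-fold per length in siPhf6 and 37.7-fold in siCtl, a log2 difference of -1.13 (-1.40 to -0.86). Sema3f was lower relative to both its receptors, by -1.22 (-1.65 to -0.79) against Nrp2 and -1.04 (-1.45 to -0.65) against Plxna3. Sema4d was higher relative to Plxnb1, by 0.39 (0.18 to 0.61). These within-library ratios do not depend on library size.

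**Figure D4:**
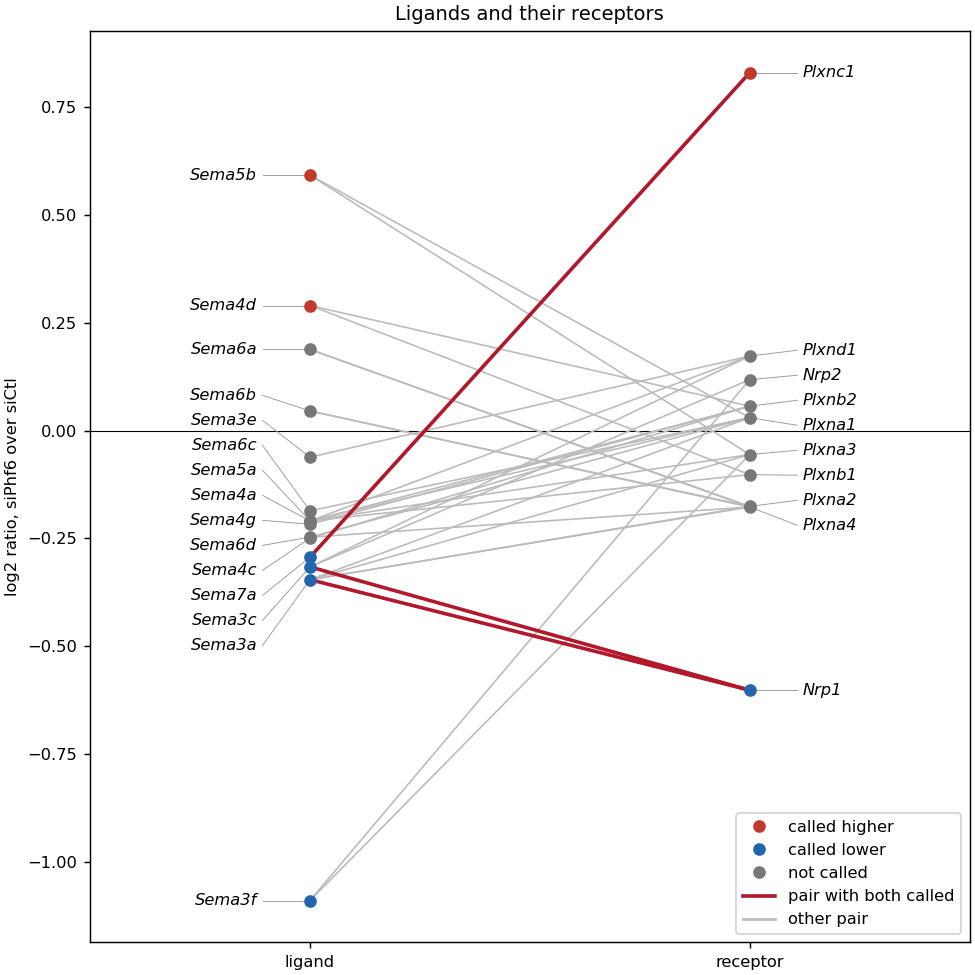
Log2 ratio of siPhf6 over siCtl (vertical axis) of each ligand (left) and its receptors (right), joined by a line for each of the 30 pairs with both genes kept. Thick red lines mark the 3 pairs with both genes called: Sema3a and Sema3c (-0.35 and -0.32) run to Nrp1 (-0.60), and Sema7a (-0.29) to Plxnc1 (0.83).

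The start-site sequences of the genes in these 3 pairs are shown because they are the only pairs in which ligand and receptor were both called. Each runs from 250 bases before to 50 bases after the gene's start in RefSeq (build GRCm38.p6), 5′ to 3′ on the gene's strand, and capitals mark GGGCGG or its reverse complement CCGCCC, the GC box to which Sp1 and related factors bind.
Sema3a, chr5:13396534-13396833, plus strand: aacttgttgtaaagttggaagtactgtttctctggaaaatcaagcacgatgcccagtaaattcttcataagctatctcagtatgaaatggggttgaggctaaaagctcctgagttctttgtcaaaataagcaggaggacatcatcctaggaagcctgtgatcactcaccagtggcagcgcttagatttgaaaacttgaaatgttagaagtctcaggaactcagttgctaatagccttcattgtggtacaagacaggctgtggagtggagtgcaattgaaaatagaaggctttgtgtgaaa
Sema3c, chr5:17574566-17574865, plus strand: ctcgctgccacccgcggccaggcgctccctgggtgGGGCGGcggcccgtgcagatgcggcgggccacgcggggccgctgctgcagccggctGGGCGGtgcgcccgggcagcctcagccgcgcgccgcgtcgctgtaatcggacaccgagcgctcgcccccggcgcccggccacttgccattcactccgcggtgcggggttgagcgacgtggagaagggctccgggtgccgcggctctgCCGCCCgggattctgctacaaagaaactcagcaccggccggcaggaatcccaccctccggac
Nrp1, chr8:128358823-128359122, plus strand: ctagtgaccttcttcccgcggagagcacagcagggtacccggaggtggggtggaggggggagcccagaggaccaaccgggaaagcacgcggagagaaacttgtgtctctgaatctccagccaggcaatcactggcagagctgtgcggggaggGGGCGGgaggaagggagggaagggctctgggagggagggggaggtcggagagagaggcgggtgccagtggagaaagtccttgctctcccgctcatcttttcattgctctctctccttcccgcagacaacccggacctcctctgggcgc
Sema7a, chr9:57939862-57940161, plus strand: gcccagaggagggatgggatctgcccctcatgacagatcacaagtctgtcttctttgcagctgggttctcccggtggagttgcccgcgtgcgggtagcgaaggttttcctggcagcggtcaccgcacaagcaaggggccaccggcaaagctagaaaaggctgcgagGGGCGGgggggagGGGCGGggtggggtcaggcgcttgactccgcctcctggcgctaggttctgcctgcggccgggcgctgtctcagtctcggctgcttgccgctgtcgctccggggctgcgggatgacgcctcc
Plxnc1, chr10:94944796-94945095, minus strand: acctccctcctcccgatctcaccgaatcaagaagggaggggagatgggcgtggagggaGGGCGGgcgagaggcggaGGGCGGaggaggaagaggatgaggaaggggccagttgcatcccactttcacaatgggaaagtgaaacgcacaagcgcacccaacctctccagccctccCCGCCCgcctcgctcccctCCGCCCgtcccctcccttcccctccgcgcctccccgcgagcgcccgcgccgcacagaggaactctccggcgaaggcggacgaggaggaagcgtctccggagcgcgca
Base composition set Sema3a apart. Its sequence has 41.3% G and C, 2 CpG dinucleotides and no GC box, while that of Sema3c has 75.7% G and C, 42 CpG and 3 GC boxes. The Sema3a window begins at 13396534, far inside the gene as GENCODE draws it (from 13125414), so it may not be the promoter in use in these cells. Nrp1 has 64.0% G and C, 14 CpG and 1 GC box, Sema7a 67.3%, 23 and 2, and Plxnc1 69.0%, 30 and 4, where the median of all such sequences is 52.7% G and C and 7 CpG. Of the 31 members 26 matched the table, some with several starts, which gave 37 sequences. A GC box was in 27 of the 37 and in 35.7% of all sequences of this length. The TATA box letters TATAAA, found in 13.6% of all sequences on either strand, were in none of the 37 member sequences. A match is only a description of these letters in this window.

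Genes that act with or below these receptors were called in unequal shares. Of 56 co-receptors, GTPases and their regulators, kinases and cytoskeletal effectors listed from general knowledge, 46 were kept, of which 8 were lower and 4 higher (26.1%, against 25.7% of all kept genes). Their median log2 ratio was -0.03, against 0.01 over all kept genes. The largest decrease was that of Met, the HGF receptor and a partner of B-class plexins, with 673 reads in siPhf6 and 1203 in siCtl (-0.63, -0.77 to -0.50). Itgb1, the integrin subunit through which Sema7a acts, had 2479 reads in siPhf6 and 2319 in siCtl and was the only co-receptor called higher (0.30, 0.22 to 0.38).

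Of the 15 kept GTPases and regulators, 8 were called (53.3%), 5 lower and 3 higher, against 1 of 11 kept kinases (9.09%), 1 of 11 cytoskeletal effectors (9.09%) and 2 of 9 co-receptors (22.2%). The share over all kept genes was 25.7%. These differences between small groups of genes were not tested. Mras, a Ras-family GTPase (833 reads in siPhf6 and 1454 in siCtl; -0.60, -0.73 to -0.48), Arhgap35, a GTPase-activating protein (-0.46, -0.52 to -0.40), and Rnd3 (-0.36, -0.58 to -0.15) were lower. So were Farp1, an exchange factor (-0.27, -0.37 to -0.18), and Arhgef12, an exchange factor bound by B-class plexins (-0.32, -0.38 to -0.26). Rnd2 (0.42, 0.18 to 0.65) and Rnd1, which binds plexins (0.39, 0.16 to 0.63), were higher, as was Rap1b, a substrate of plexin GAP activity, with 1436 reads in siPhf6 and 1239 in siCtl (0.42, 0.30 to 0.53). The kinase Pak1 (-0.29, -0.38 to -0.20) and Mical3 (-0.28, -0.38 to -0.19), of a family of actin-oxidising enzymes bound by A-class plexins, were lower. None of the CRMP genes, the classic effectors of Sema3a, was called: Crmp1 stood at 0.00 (-0.06 to 0.06), Dpysl2 at -0.17 (-0.25 to -0.09) and Dpysl3 at 0.05 (0.01 to 0.10).

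Variation between cultures was not measured. Where cultures were assumed to differ with a coefficient of variation of 0.1, none of the 6 called members that passed the filter in both libraries kept its call (edgeR's exact test), and with 0.05 Nrp1 and Plxnc1 did. Sema3f kept its call at both values, but as it was kept through the library in which it was higher, this lends its call no support. Exons of Nrp1 share 80 bases with Mir1903 and those of Plxnc1 115 bases with Gm48718, and no other called member overlaps an annotated exon of another gene. Because the kit keeps no strand, reads in such bases cannot be assigned to one gene.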

How the data were processed

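The mRNA-seq libraries, 1 of siPhf6 and 1 of siCtl, came from the TruSeq RNA v2 kit. HISAT2 was used by the authors for alignment to mm10 and samtools for removal of duplicates, and reads were assigned to genes of GENCODE M9 by HTSeq; tool versions for these steps are not given in the sources used here. Named in the submitters' processing notes are deepTools 3.5.1 and the build mm10. The deposited counts are whole reads per gene, unfiltered. HTSeq's totals stayed out of library sizes. Of all reads listed, 24.1% in siPhf6 and 25.3% in siCtl fell in no feature that HTSeq counted, while 2.04% in siPhf6 and 1.99% in siCtl were ambiguous. Removal of duplicates can lower counts of abundant genes.

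Gene IDs were matched without version to GENCODE M21 (10114 of 10130 kept genes). RPM used totals of gene reads, and RPKM the merged exon length in M21. Binomial tests and intervals used scipy 1.17.1, with intervals of within-library ratios from the exact conditional odds ratio. Alternatives used edgeR 4.0.16 (TMM, exact test with an assumed dispersion) and DESeq2 1.42.0 size factors, with other filters, fold limits and 0.5 reads added in place of 1. With 1 library per group no quasi-likelihood test could be fitted. PCR copies without molecular identifiers are not separate molecules, so intervals hold counting error alone. Reads of 3 noncoding antisense genes named after Plxna4 were left out.

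The members, the pairs and the gene lists were chosen with earlier results of these data known. Named were all members, Phf6 and, of each list of genes that act with or below the receptors, the called genes (at most 4 in each direction). Farp1, the CRMP genes and the markers given by name were chosen after their values were seen, and not every called marker is named.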

Additional observations from a re-analysis of the deposited data

How the results depend on the processing

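Of the 10 alternatives, only the 3 other scalings and the number of reads added can move a ratio, and they shifted the median of all kept genes by no more than -0.0092, so the other 6 bear on calls alone. With an assumed coefficient of variation of 0.1, 0 members were higher and 1 lower (main 3 and 5), 0 pathway genes were higher and 0 lower (main 4 and 8), and 165 of all genes were higher and 86 lower (main 1350 and 1254). At 0.05 these counts were 1 and 2 members, 1 and 3 pathway genes, and 647 and 609 of all genes. With a fold limit of 0.5 in place of 0.25 they were 2 and 2 members, 0 and 2 pathway genes, and 562 and 493 of all genes. TMM and DESeq2 size factors added calls of Sema4c (-0.26) and Sema6d (-0.26), which makes 7 members lower; totals without mitochondrial and the 50 most abundant genes added Sema4c alone (-0.25), and fold alone added Sema4b (-0.26). The other filters and 0.5 added reads changed no member's call, and the sums of classes stayed within their counting intervals under the 3 other scalings. No paired analysis was possible because each group has 1 library. For Plxnb3, Sema3g, Sema3b and Sema3d depth limits any statement.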
